A study of Mus musculus with 6 samples.

Results

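The 4 Hox clusters of the mouse genome were examined in chromatin and DNA methylation libraries of embryonic stem (ES) cells. Each cluster was taken as 1 fixed stretch of build mm9, and its reads were compared with those of the 200 kb on each side. The stretches were Hoxa at chr6:52100001-52220000 (120 kb), Hoxb at chr11:96050001-96240000 (190 kb), Hoxc at chr15:102740001-102870000 (130 kb) and Hoxd at chr2:74500001-74610000 (110 kb). Together they held 550 windows of 1 kb, of which 540 were among the 2416904 such windows of the genome with a read in any library, and 55 windows of 10 kb, of 264182 in the genome. The list of genes in them had 38 members: 10 of Hoxa, 10 of Hoxb, 9 of Hoxc and 9 of Hoxd. No measured value set the bounds of these stretches, but earlier results of these data were known when the clusters were chosen.

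All 6 libraries came from C57Bl/6 mouse ES cells kept in leukaemia inhibitory factor (LIF) with no feeder layer. A single chromatin immunoprecipitation (ChIP) library was made with a rabbit antibody, raised by the submitters, against the histone variant H2A.B (labelled mH2ABbd), and 1 with rabbit IgG, which measures background. 3 libraries of methylated DNA immunoprecipitation (MeDIP) were made with mouse antibody clone 33D3 against 5-methylcytosine (5mC), and 1 with mouse IgG. No genotype or treatment differed between the libraries. For both IgG libraries 1 label field gives IgG and another the H2A.B antibody, and title and antibody field were followed. Nothing in the labels ties the 3 5mC libraries to separate cultures, so the spread between them may be technical.

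Hox genes encode homeodomain transcription factors that give cells their position along the head-to-tail axis of the embryo. Their order along the chromosome follows the order in which they are used, low numbers in the head and hindbrain and high numbers in the trunk, tail and limb ends. In undifferentiated ES cells the clusters are known as broad domains of Polycomb repression, dense in CpG islands and poor in interspersed repeats. CpG islands are as a rule free of 5mC. H2A.B is a short H2A variant that wraps less DNA than ordinary H2A and is known best from the testis and from active genes.

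The promoters of Hox genes show how much the sequence available to a 5mC antibody varies within these clusters, since 5mC in mammals lies mostly at CpG. RefSeq promoters of build GRCm38.p6, from 250 bases before to 50 after the start, were matched by symbol for 22 of the 38 members; for a gene with several starts, the one with the most CpG was taken. Hoxa4, Hoxb2, Hoxb3, Hoxb5, Hoxb6, Hoxb7, Hoxb9, Hoxb13, Hoxc5, Hoxc6, Hoxc8, Hoxc9, Hoxc10, Hoxc11, Hoxc12 and Hoxc13 were not matched. The 22 held a median of 17.5 CpG in 300 bases, from 4 to 45, against a median of 8 over the 27018 genes of the table. Observed over expected CpG was at least 0.6 in 12 of the 22 (54.5%) and in 38.3% of all genes. 5 promoters are printed, the one with the most CpG in each cluster (in Hoxc the only one matched) and the one with the fewest of all, with every CpG in capitals. They are Hoxa13 (chr6:52260831-52261130, minus strand) and Hoxd13 (chr2:74667975-74668274, plus strand), which shape digits and limb ends, Hoxb4 (chr11:96318017-96318316, plus strand), known from blood stem cells, Hoxc4 (chr15:103034145-103034444, plus strand), of the neck and upper trunk, and Hoxa9 (chr6:52227321-52227620, minus strand), known from blood progenitors and leukaemia. These positions are those of GRCm38.p6 and do not apply to the mm9 windows of the reads.
Hoxa13: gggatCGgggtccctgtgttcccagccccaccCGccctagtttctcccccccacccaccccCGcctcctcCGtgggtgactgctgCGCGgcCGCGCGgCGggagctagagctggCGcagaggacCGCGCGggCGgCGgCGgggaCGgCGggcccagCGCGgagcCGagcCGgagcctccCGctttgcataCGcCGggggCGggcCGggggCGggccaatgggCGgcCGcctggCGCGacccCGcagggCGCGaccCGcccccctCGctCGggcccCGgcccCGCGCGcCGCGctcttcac
Hoxd13: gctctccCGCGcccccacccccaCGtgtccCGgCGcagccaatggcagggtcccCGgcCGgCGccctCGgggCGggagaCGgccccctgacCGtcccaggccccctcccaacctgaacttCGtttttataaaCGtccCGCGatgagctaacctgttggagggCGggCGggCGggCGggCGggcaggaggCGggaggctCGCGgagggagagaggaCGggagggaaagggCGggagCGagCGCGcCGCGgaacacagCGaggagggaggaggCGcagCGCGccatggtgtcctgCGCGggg
Hoxb4: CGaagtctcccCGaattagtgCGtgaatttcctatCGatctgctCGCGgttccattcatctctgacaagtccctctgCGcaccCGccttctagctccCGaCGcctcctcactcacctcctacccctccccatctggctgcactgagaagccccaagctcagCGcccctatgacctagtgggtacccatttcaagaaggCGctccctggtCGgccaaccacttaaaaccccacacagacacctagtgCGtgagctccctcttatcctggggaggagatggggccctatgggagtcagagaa
Hoxc4: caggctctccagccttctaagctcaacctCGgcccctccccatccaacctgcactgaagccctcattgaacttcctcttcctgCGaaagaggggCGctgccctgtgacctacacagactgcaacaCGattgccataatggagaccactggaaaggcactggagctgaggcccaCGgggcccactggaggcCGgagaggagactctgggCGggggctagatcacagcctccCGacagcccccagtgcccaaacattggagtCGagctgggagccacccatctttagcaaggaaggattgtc
Hoxa9: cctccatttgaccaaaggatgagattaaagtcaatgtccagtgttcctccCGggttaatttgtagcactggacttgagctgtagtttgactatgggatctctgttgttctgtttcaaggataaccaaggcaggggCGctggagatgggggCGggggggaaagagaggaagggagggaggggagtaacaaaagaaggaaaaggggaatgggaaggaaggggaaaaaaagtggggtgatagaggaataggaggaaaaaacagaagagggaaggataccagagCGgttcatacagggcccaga

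Hoxa13 had 45 CpG, and 97.8% of all genes of the table had fewer. Hoxd13 followed with 37. Hoxb4 held 14 and Hoxc4 only 9. Hoxa9 held 4, as did Hoxd4. Between these extremes lay Hoxa5, needed for the lung, and Hoxd1 with 29 each, Hoxa6 with 26, Hoxd11 with 25, Hoxd10, which patterns lumbar motor neurons, with 22, Hoxa10, which patterns the uterus, with 21, and Hoxa3, needed for the thymus and parathyroid, Hoxd3 and Hoxd9 with 20 each. Hoxa11, of the kidney and forelimb, held 15, Hoxb8 and Hoxd12 13 each, Hoxb1, which marks a hindbrain segment, 10, Hoxa2, which patterns the second pharyngeal arch, and Hoxa7 9 each, and Hoxd8 6. Within Hoxa and within Hoxd the promoters thus ranged from CpG-rich to CpG-poor.

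**Figure D1:**
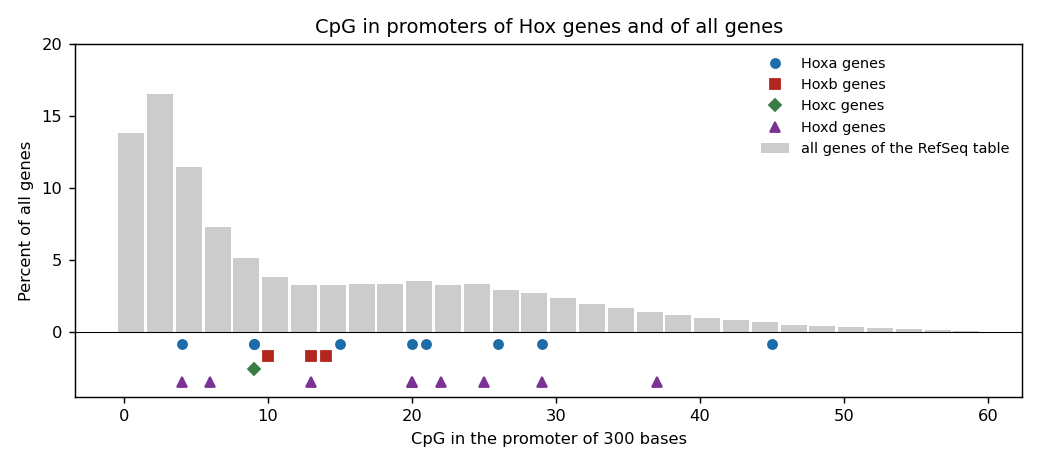
Bars give the percent of all 27018 genes of the RefSeq table by the number of CpG in their 300-base promoter, and symbols below the axis mark the 22 matched Hox genes by cluster. The Hox genes spread from 4 CpG (Hoxa9, Hoxd4) to 45 (Hoxa13).

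Before the read counts are given, 2 properties of the read lists need stating. Distinct reads on chromosomes 1 to 19, X and Y numbered 8053559 for H2A.B ChIP, 539303 for IgG ChIP, 1396972, 1893285 and 803580 for 5mC replicates 1, 2 and 3, and 124157 for IgG MeDIP. H2A.B ChIP and 5mC replicate 1 had 42 bp reads, all from lane 3 of 1 flow cell. The other 4 libraries had 50 bp reads from a second flow cell, 5mC replicate 2 and IgG MeDIP in its lane 1, 5mC replicate 3 and IgG ChIP in its lane 2. Antibody and flow cell therefore cannot be told apart for H2A.B against IgG ChIP. The lists of 5mC replicates 2 and 3 were also not single sorted lists. That of replicate 2 was 4 sorted blocks, the third of which was the whole IgG MeDIP list and was left out, and that of replicate 3 was 3 sorted blocks. The blocks shared few positions. Of the distinct positions of a block, 1.13% to 8.63% recurred in another block of replicate 2, and 1.77% to 8.18% in another block of replicate 3. Values are given below for the whole lists and for the blocks.

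H2A.B reads inside the 4 clusters stood close to their level in the flanks. Summed over the clusters, 2155 distinct H2A.B reads lay inside and 5923 in the flanks, which is 39.2 against 37.0 reads per 10 kb and a fold of 1.06 (95% interval 1.01 to 1.11). With flanks of 500 kb it was 1.03, with an interval that included 1. IgG ChIP had 143 and 425 reads and a fold of 0.979 (0.804 to 1.19). The H2A.B fold divided by that of IgG ChIP was 1.08 (0.887 to 1.32). Intervals are exact (Clopper-Pearson for a fold, the conditional odds ratio for a ratio of folds) and cover counting error only, since H2A.B, IgG ChIP and IgG MeDIP each had 1 library. No difference between H2A.B and its IgG control was detectable in the clusters at this depth, and the interval allows an excess of up to 1.32-fold.

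The clusters differed among themselves in H2A.B more than counting error allows. Hoxd had 383 reads inside and 1025 in the flanks, a fold of 1.36 (1.21 to 1.53). Hoxa had 509 and 1460, a fold of 1.16 (1.05 to 1.29), but 1.01, with an interval that included 1, with flanks of 100 kb. Hoxb had 783 and 1703, a fold of 0.968 (0.888 to 1.05). Hoxc had 480 and 1735, a fold of 0.851 (0.768 to 0.942), but 0.941, again with an interval that included 1, with flanks of 100 kb. The flanks differed more between clusters than the clusters themselves. Inside, Hoxa held 42.4 reads per 10 kb, Hoxb 41.2, Hoxc 36.9 and Hoxd 34.8, while the flanks of Hoxd held only 25.6 against 36.5, 42.6 and 43.4 around Hoxa, Hoxb and Hoxc. Hoxd was thus highest in fold and lowest in reads per 10 kb. Beside tiles of its own length over the genome, taken with the same flanks, the fold of Hoxd was above 98.1% of 23262 tiles, that of Hoxa above 88.3%, that of Hoxb above 41.0% and that of Hoxc above 11.6%. Once divided by the IgG ChIP fold, no cluster stood out among its tiles. That ratio was above 63.6% of tiles in Hoxd, 63.4% in Hoxa, 65.0% in Hoxb and 61.2% in Hoxc.

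The folds of IgG ChIP fell in the same order for distinct reads with 200 kb flanks, but not with all reads (Hoxa 0.714, Hoxb 1.05, Hoxc 0.730 and Hoxd 1.21) or with 100 kb flanks, where Hoxc (1.03) exceeded Hoxb (0.969). For distinct reads they were 1.23 (0.769 to 1.90) in Hoxd from 28 reads inside, 1.05 (0.644 to 1.67) in Hoxa from 25, 0.885 (0.640 to 1.21) in Hoxb from 58, and 0.788 (0.517 to 1.17) in Hoxc from 32. The H2A.B fold divided by that of IgG ChIP was 1.10 in Hoxa, 1.09 in Hoxb, 1.08 in Hoxc and 1.11 in Hoxd, and each interval included 1. Their lower bounds ran from 0.686 to 0.789 and their upper bounds from 1.53 to 1.82. 5mC replicate 1, from the same lane as H2A.B, gave a base with the same read length. Relative to it H2A.B stood at 0.765 (0.579 to 1.02) in Hoxa, 0.930 (0.738 to 1.18) in Hoxb, 0.847 (0.642 to 1.13) in Hoxc and 0.904 (0.652 to 1.26) in Hoxd. Summed, that ratio was 0.860 (0.752 to 0.985). 5mC replicate 1 was itself above its flanks there, with a fold of 1.23 (1.08 to 1.39). A ratio below 1 therefore does not show H2A.B below its flanks.

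**Figure D2:**
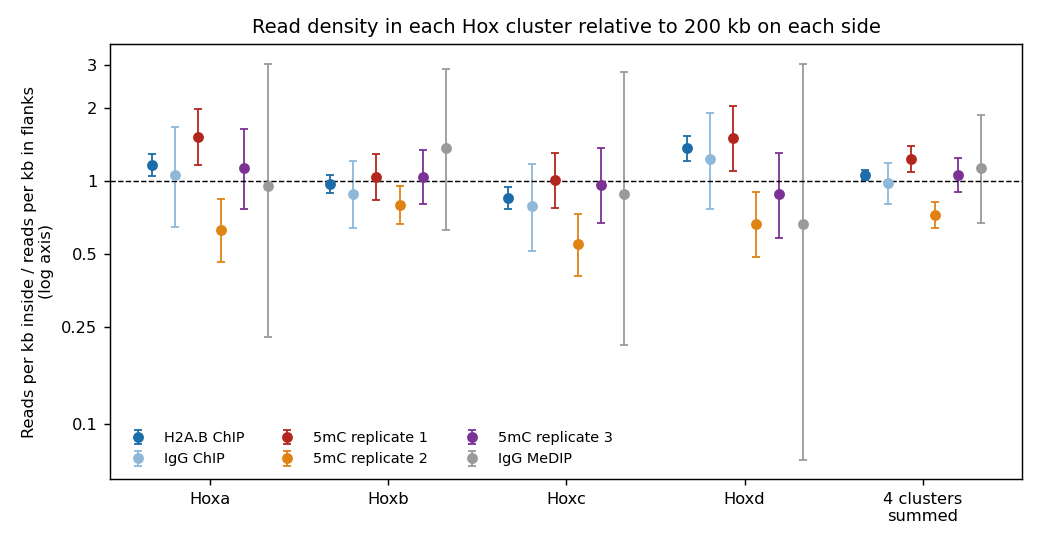
Points give distinct reads per kb inside each Hox cluster divided by reads per kb in 200 kb on each side (log axis) for the 6 libraries, with exact 95% intervals for counting error. 5mC replicate 2 lies below 1 in all 4 clusters (0.550 to 0.798), while H2A.B ranges from 0.851 in Hoxc to 1.36 in Hoxd.

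The 5mC libraries disagreed on the Hox clusters. Replicate 1 had 360 distinct reads inside and 851 in the flanks, a fold of 1.23 (1.08 to 1.39). Replicate 2 had 337 and 1353, a fold of 0.725 (0.641 to 0.817). Replicate 3 had 210 and 579, a fold of 1.06 (0.897 to 1.24). The mean fold was 1.00 ± 0.257 (SD, n = 3), and 1.14 ± 0.124 (SD, n = 2) without replicate 2. Without replicate 2 the mean thus lay further from 1 than its SD, which it did not with n = 3. With so few libraries this SD is no test of a difference from the flanks. IgG MeDIP had 23 and 59 reads and a fold of 1.13 (0.668 to 1.86), an interval that holds the folds of all 3 replicates. The ratio of the replicate 2 fold to it, both from 1 lane, was 0.639 (0.382 to 1.10). Divided by IgG MeDIP, the 5mC folds averaged 0.885 ± 0.227 (SD, n = 3), and 0.655 ± 0.145 with flanks of 100 kb. An exact permutation test of 3 libraries against 1 cannot give a two-sided p below 0.25 and was not used.

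Replicate 2 was below its flanks in each of the 4 clusters and replicate 1 was not below in any. In Hoxa replicates 1, 2 and 3 had 87, 55 and 40 reads inside and folds of 1.52 (1.16 to 1.97), 0.630 (0.463 to 0.843) and 1.13 (0.769 to 1.63). In Hoxb they had 131, 172 and 95 reads and folds of 1.04 (0.838 to 1.29), 0.798 (0.665 to 0.953) and 1.04 (0.806 to 1.34). In Hoxc they had 80, 57 and 43 reads and folds of 1.00 (0.771 to 1.30), 0.550 (0.407 to 0.731) and 0.966 (0.669 to 1.37). In Hoxd they had 62, 53 and 32 reads and folds of 1.503 (1.10 to 2.03), 0.667 (0.488 to 0.896) and 0.882 (0.580 to 1.31). Replicate 1 exceeded replicate 2 by 2.41 (1.61 to 3.61) in Hoxa, 1.30 (0.983 to 1.73) in Hoxb, 1.83 (1.23 to 2.72) in Hoxc and 2.25 (1.45 to 3.49) in Hoxd. Hoxb, the longest cluster, was the only one of the 4 in which that interval included 1. Against the flank at higher coordinates alone, the fold of replicate 1 was 1.21 in Hoxa and 1.33 in Hoxd, both with an interval that included 1. With flanks of 100 kb, the fold of replicate 2 was 0.842 in Hoxb, 0.820 in Hoxc and 0.765 in Hoxd, each with an interval that included 1. Replicate 3 exceeded replicate 2 with an interval above 1 in Hoxa (1.79, 1.10 to 2.91) and Hoxc (1.76, 1.10 to 2.80). In Hoxd the fold of replicate 3 moved from 0.882 to 0.405 when repeated positions were counted.

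IgG MeDIP was too shallow to place single clusters. It had 4 reads in Hoxa, 13 in Hoxb, 4 in Hoxc and 2 in Hoxd, with folds of 0.952 (0.228 to 3.03), 1.37 (0.626 to 2.89), 0.879 (0.211 to 2.80) and 0.661 (0.0712 to 3.03). In each of the 4 clusters, the ratio of each 5mC replicate to it had an interval that included 1. By limma, with the clusters fitted beside 100 kb windows and all libraries thinned to the depth of IgG MeDIP, 0 of 25624 features were called higher (0.00%) and 0 lower (0.00%), while an unadjusted p under 0.05 was reached by 1632 upward and 140 downward. The log2 difference of 5mC minus IgG was 0.36 ± 0.66 (SE) in Hoxa, -0.06 ± 0.45 in Hoxb, 0.48 ± 0.50 in Hoxc and 0.86 ± 0.85 in Hoxd, beside a median of 0.13 over all features. limma's Benjamini-Hochberg adjusted p was 0.952, 0.989, 0.895 and 0.890. In simulated data a rise of 4-fold was called in 1% of the windows that had it and a rise of 16-fold in 79%, so a moderate difference would not be seen. The simulation had counting noise only and no other spread between libraries, so these shares may be too high for the real libraries. No cluster passed either without thinning, where 3652 of 25624 features were higher and 163 lower. Those counts are not read as enrichment, since unequal depth gave false calls in earlier work on these data, hence the thinning.

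Beside genome tiles of the same length, the gap between replicates 1 and 2 was wide in 3 clusters. The ratio of their folds was above 98.7% of tiles in Hoxa, 98.1% in Hoxd, 95.0% in Hoxc and 80.1% in Hoxb. Of the replicate 2 folds themselves, 3.77% of tiles were below Hoxc, 8.81% below Hoxa, 12.3% below Hoxd and 23.0% below Hoxb. Of the replicate 1 folds, 87.6% of tiles were below Hoxa, 86.5% below Hoxd, 58.0% below Hoxb and 55.1% below Hoxc. In reads per 10 kb the Hoxb cluster was above most of its tiles in every library. The shares of tiles below it were 78.2% in H2A.B, 78.0% in 5mC replicate 1, 73.6% in replicate 2 and 80.9% in IgG MeDIP. They were highest in 5mC replicate 3 and IgG ChIP, the pair from 1 lane, at 96.0% and 93.1%. In the other 3 clusters the shares of this pair were 49.5% to 65.8% and 56.8% to 78.4%.

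**Figure D3:**
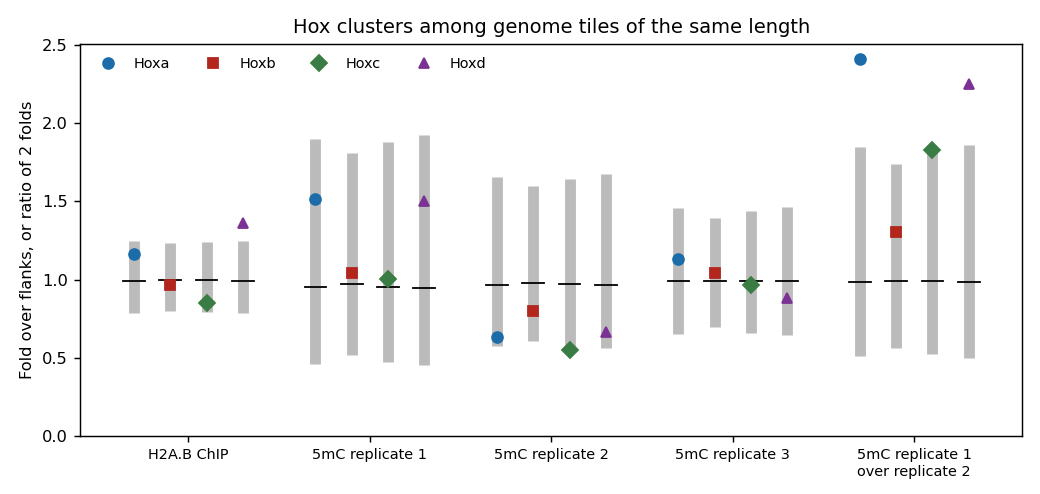
Symbols give the fold of each Hox cluster over its flanks by library, and at the right the ratio of the folds of 5mC replicates 1 and 2. Grey bars span the 5th to 95th percentile of genome tiles of the same length and black lines their median. Hoxd lies above its bar in H2A.B (1.36, not divided by IgG ChIP), and Hoxa (2.41) and Hoxd (2.25) lie above theirs in the ratio.

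The sorted blocks of the replicate 2 list did not agree on the Hox clusters. In the first block 147 reads lay inside and 698 in the flanks, a fold of 0.613 (0.509 to 0.733), and in the second 76 and 434, a fold of 0.509 (0.394 to 0.651). Each of these was below 1 in all 4 clusters, with an interval that excluded 1, from 0.460 in Hoxc to 0.723 in Hoxb in the first block and from 0.265 in Hoxd to 0.630 in Hoxb in the second. The last block, which follows the IgG reads, went the other way, with 118 reads inside and 242 in the flanks, a fold of 1.42 (1.13 to 1.77). Its folds were 1.40 in Hoxa, 1.46 in Hoxb, 0.985 in Hoxc and 1.89 (1.12 to 3.13) in Hoxd. The blocks also differed in how often reads repeated a position, with 46.0%, 42.0% and 91.7% of reads at distinct positions in the first, second and last. The low level of replicate 2 in the clusters thus lay in its first 2 blocks. Which of the blocks belong to replicate 2 cannot be told from the list.

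In replicate 3 no block had an interval that excluded 1 over the summed clusters. The folds were 1.05 (0.855 to 1.29) in the first block, 0.992 (0.632 to 1.52) in the second and 1.15 (0.821 to 1.59) in the third. With only the first blocks of replicates 2 and 3 kept, the mean 5mC fold was 0.966 ± 0.318 (SD, n = 3). With only the last block of replicate 2 kept, it was 1.23 ± 0.182 (SD, n = 3). That is above 1 by more than its SD, which is again no test of a difference.

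**Figure D4:**
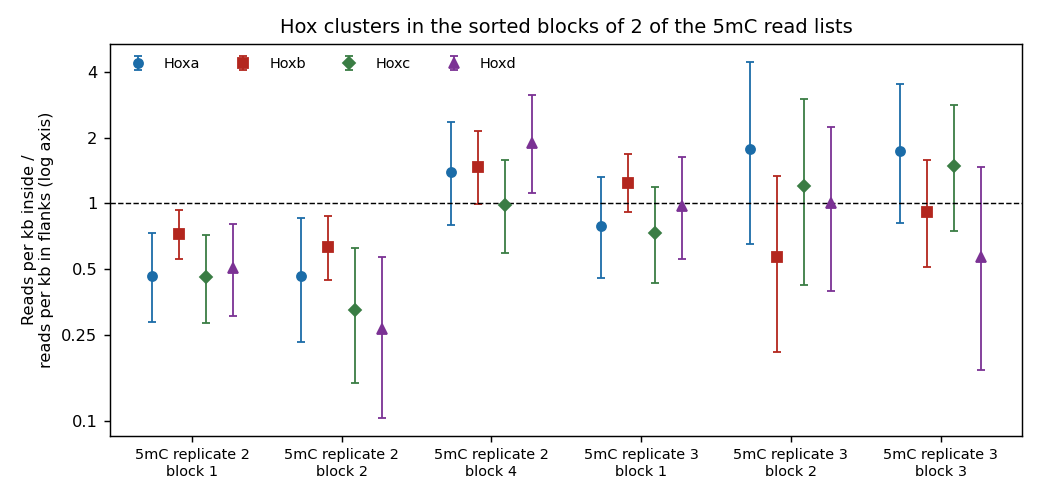
Points give the fold of reads inside over flanks (log axis) in each Hox cluster for the sorted blocks of the read lists of 5mC replicates 2 and 3, with exact 95% intervals. The first 2 blocks of replicate 2 lie below 1 in all 4 clusters, and its last block, at 0.985 to 1.89, does not.

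The fullest 10 kb windows of 5mC replicates 1 and 2 lay in the flanks. In replicate 3 the fullest window held 11 reads both inside and in the flanks. For replicate 2 the 55 windows of 10 kb inside the clusters held 1 to 18 reads with a median of 5. The 160 flank windows held 1 to 70 with a median of 6. The 5 fullest flank windows had 242 reads, 17.9% of all flank reads of the library. Leaving out the 5 fullest flank windows of a library, and none inside, raises any fold by construction. It moved that of replicate 2 from 0.725 to 0.855 (0.754 to 0.967), that of replicate 1 from 1.23 to 1.40 (1.23 to 1.59) and that of IgG MeDIP from 1.13 to 1.51 (0.867 to 2.56). In replicate 2 the level inside was 0.834 times that of the nearest 50 kb, then 0.776, 0.708 and 0.617 times that of each next 50 kb. The same ratios were 0.931, 0.967, 1.16 and 1.22 in replicate 3, 1.16, 1.33, 1.69 and 0.959 in replicate 1, and 2.79, 1.05, 2.09 and 0.577 in IgG MeDIP, so the libraries shared no trend with distance. H2A.B stayed at 1.04, 1.10, 1.05 and 1.05.

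**Figure D5:**
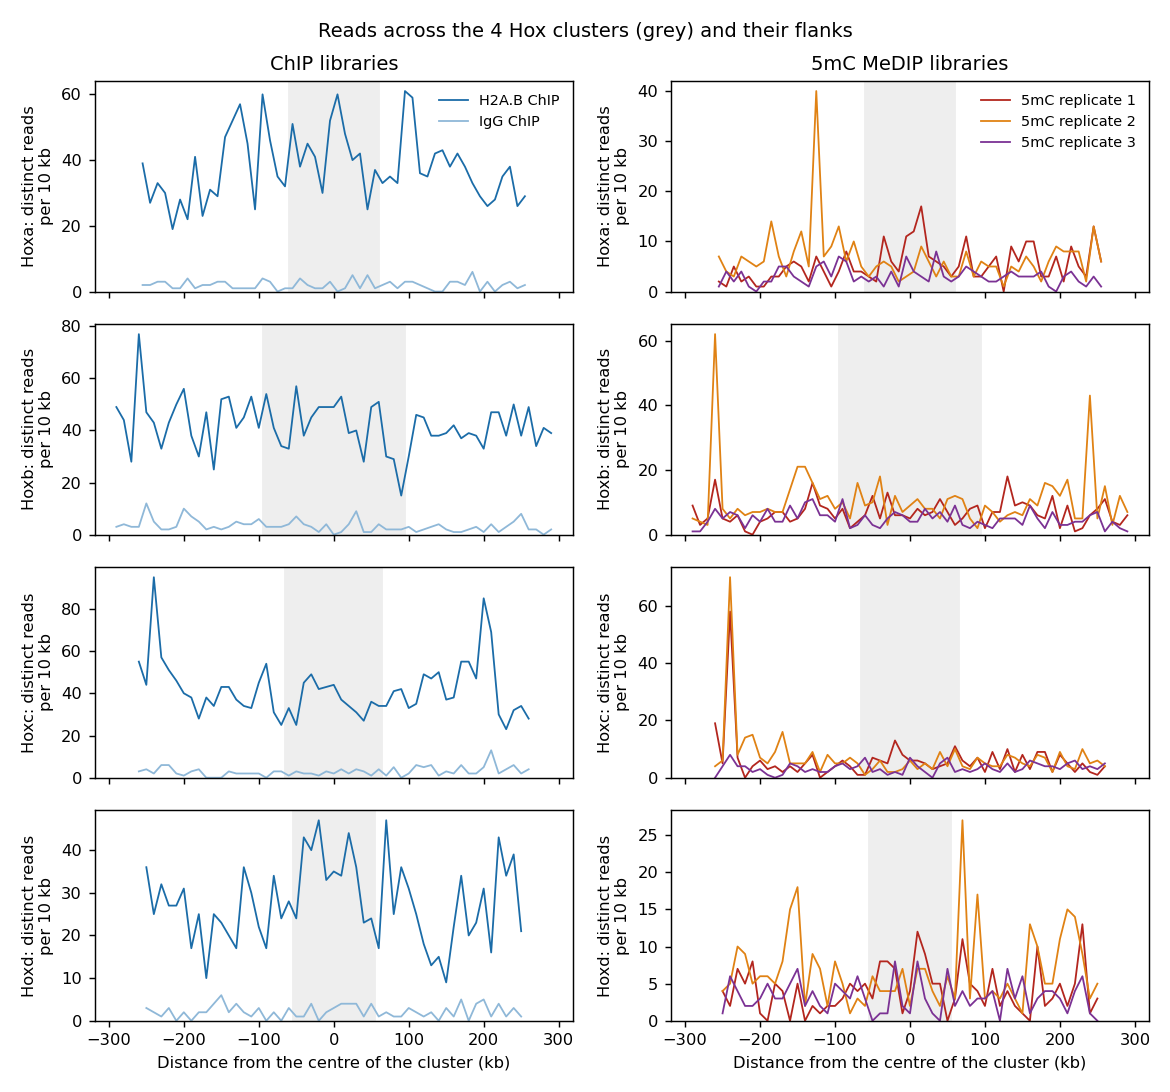
Lines give distinct reads per 10 kb window against the distance from the centre of each Hox cluster, with the cluster shaded and 200 kb on each side, for the ChIP libraries (left) and the 5mC libraries (right). The tallest windows of 5mC replicates 1 and 2 lie in the flanks, with up to 70 reads of replicate 2 against at most 18 inside.

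Within the clusters H2A.B and 5mC replicates 1 and 2 varied less from window to window than in the flanks or over the genome, though by more than counting noise. H2A.B held 15 to 60 reads in the 55 windows of 10 kb, with a median of 40 and a ratio of SD to mean of 0.246, against 0.353 in the 160 flank windows and 0.521 in the 255058 other windows kept over the genome. The ratio of variance to mean, which is 1 for pure counting noise, was 2.37 for H2A.B inside, 4.60 in the flanks and 8.44 over the genome. For 5mC replicates 1 and 2 it was 1.83 and 2.17 inside, 5.69 and 8.95 in the flanks and 8.34 and 8.63 over the genome. Replicate 3 did not share this, with 1.85 inside, 1.16 in the flanks and 1.68 over the genome. Both IgG libraries did, with 1.18, 1.64 and 1.41 in IgG ChIP and 1.30, 1.59 and 1.98 in IgG MeDIP. The lower variation inside was thus not limited to H2A.B and 5mC. Profiles along the 55 windows agreed weakly. Spearman's rho was 0.37 between H2A.B and 5mC replicate 1, which share a lane, and 0.06, 0.15 and 0.32 between 5mC replicates 1 and 2, 1 and 3, and 2 and 3. These are descriptions over neighbouring windows with few reads each.

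H2A.B passed the rule of size over IgG ChIP in 1 of the 55 windows, beside 0.606% of 255113 windows kept over the genome. The rule asked for a ratio of reads, scaled to the distinct reads of each library, of at least 1.5 with an exact 95% lower bound above 1. The window was chr6:52160001-52170000 in Hoxa, which held 60 H2A.B reads, the most of any Hox window, and no IgG ChIP read, so that the lower bound was 1.06. It held 12, 4 and 4 reads of 5mC replicates 1, 2 and 3. The mirrored rule, with the libraries exchanged, was met by chr11:96170001-96180000 in Hoxb, with 40 H2A.B and 9 IgG ChIP reads and a ratio of 0.298 (0.142 to 0.698), beside 2.62% over the genome. Taken whole, no cluster passed either rule (over 100 kb windows 9.72% and 9.49% did), with ratios of 1.36 (0.913 to 2.13) in Hoxa, 0.904 (0.692 to 1.20) in Hoxb, 1.00 (0.702 to 1.49) in Hoxc and 0.916 (0.624 to 1.40) in Hoxd. At this depth a window with no IgG ChIP read needed more than 56 H2A.B reads to be called.

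Every 10 kb Hox window held H2A.B reads, while 32 of the 550 windows of 1 kb (5.82%) held none. In Hoxa the fewest reads, 25, lay at chr6:52200001-52210000. In Hoxb the most, 57, lay at chr11:96090001-96100000 and the fewest, 15, at chr11:96230001-96240000, the last window of the cluster. By the gene order of GRCm38.p6 that is the end of Hoxb1, the hindbrain gene. In Hoxc the most, 49, lay at chr15:102770001-102780000 and the fewest, 25, at chr15:102750001-102760000. In Hoxd the most, 47, lay at chr2:74530001-74540000 and the fewest, 23, at chr2:74590001-74600000. IgG ChIP held 0 to 7 reads in these 7 windows.

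The 2 ends of the clusters were compared by gene number. In the same gene order Hoxa runs from Hoxa2 to Hoxa13 with rising coordinates, and Hoxb, Hoxc and Hoxd run from Hoxb13, Hoxc13 and Hoxd13 to Hoxb1, Hoxc4 and Hoxd1. Each cluster was split at its middle in kb, with no gene placed on either side. The sides towards the high numbers held 1139 H2A.B reads and the sides towards the low numbers 1016, a ratio of 1.12 (1.03 to 1.22). Hoxb gave the widest difference, with 430 against 353 reads and a ratio of 1.22 (1.06 to 1.41). The ratio was 0.981 (0.821 to 1.17) in Hoxa, 1.10 (0.913 to 1.32) in Hoxc and 1.16 (0.947 to 1.43) in Hoxd. IgG ChIP had 67 and 76 reads, a ratio of 0.882 (0.625 to 1.24), and 5mC replicates 1, 2 and 3 stood at 1.06, 1.02 and 0.944, each with an interval that included 1. Hoxc in replicate 2 was lower on the high-number side, with 20 against 37 reads (0.541, 0.297 to 0.956).

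In windows of 1 kb the clusters held at most 16 H2A.B reads and at most 9 of any 5mC library, against 34 and 47 in the flanks. H2A.B reached at least 3 times its genome mean in 15 of the 540 windows with a read in any library (2.78%), beside 2.68% over the genome. The 5mC libraries summed did so in 12 (2.22%), beside 3.19% in the flanks and 4.69% over the genome. Taken singly they disagreed. Replicate 2 was lower in the clusters, at 2.96% beside 6.15% over the genome. Replicate 1 was higher, at 15.4% beside 10.9%, and so was replicate 3, at 29.3% beside 26.1%. In replicate 3 the threshold was only 0.997 reads. No 5mC read of any library fell in 152 of the 550 windows (27.6%), and in 29.2% of the flank windows. Among windows with a read in any of the 6 libraries, the base of the genome share, these were 142 of 540 (26.3%), beside 34.0% over the genome. By cluster the windows without a 5mC read made up 29.2% of Hoxa, 21.1% of Hoxb, 32.3% of Hoxc and 31.8% of Hoxd.

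The fullest 1 kb windows of H2A.B were chr11:96092001-96093000 in Hoxb with 16 reads, chr6:52162001-52163000 in Hoxa and chr15:102770001-102771000 in Hoxc with 12 each, and chr2:74506001-74507000 in Hoxd with 10. IgG ChIP had no read in any of the 4. The fullest 5mC window was chr11:96202001-96203000 in Hoxb, with 1, 9 and 5 reads of replicates 1, 2 and 3, where IgG MeDIP also had its 3 reads and H2A.B 1. The others were chr15:102780001-102781000 in Hoxc with 8, 1 and 0, chr6:52120001-52121000 in Hoxa with 5, 1 and 1, and chr2:74566001-74567000 in Hoxd with 5, 0 and 1. In these 3, replicate 1 supplied most of the reads and IgG MeDIP had none.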

How the data were processed

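Per the submitters' processing notes, reads were aligned with Bowtie to mm9 and checked with FastQC. The sources used here give no settings. The authors deposited lists of aligned reads whose score column is constant at 255 and was not used. Each combination of chromosome, 5′ position and strand counted as 1 distinct read, because PCR (20 cycles for ChIP, 15 for MeDIP) carried no molecular identifiers. Unformatted lines (1 of H2A.B, 8 of 5mC replicate 1) were left out, as were the 201263 IgG MeDIP reads in the 5mC replicate 2 list. Folds are reads per kb inside over 200 kb on each side. Windows and tiles with under 25% or over 10 times the median pooled reads were left out of genome counts, and tiles whose flanks held under 25% too. limma 3.58.1 (R 4.3.3) used log2 read counts scaled to library depth, a pseudocount worth 0.5 IgG MeDIP reads and an intensity trend, and the lone IgG library was assumed to vary like 5mC. Counting used Python 3.11.15 with numpy 2.4.6, pandas 2.3.3 and scipy 1.17.1. Tests were run first on simulated data, which had counting noise only and no other spread between libraries. There the rule of size at 10 kb recovered 6% of windows raised 2-fold and 95% raised 8-fold. Of the 255113 windows simulated, 419 unchanged ones were called enriched and 3570 mirrored. Windows named are those of extreme count in each cluster or past the rule. The clusters, lists and rules were chosen with earlier results of these data known. No mm9 annotation was used, so genes were not placed in windows. Coordinates count from 1.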

Additional observations from a re-analysis of the deposited data

How the results depend on the processing

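Depth limits every comparison with IgG: IgG MeDIP had 23 reads in the 4 clusters together. No paired analysis was possible because only the 5mC group had more than 1 library. The H2A.B fold divided by that of IgG ChIP, 1.08, lay between 0.956 (flanks of 100 kb) and 1.11 under its 8 alternatives, each with an interval that included 1. The 5mC fold divided by that of IgG MeDIP, 0.885, moved to 0.655 with flanks of 100 kb; without 1 replicate each it ranged from 0.785 to 1.01, and the 5mC fold from 0.890 to 1.14. Windows called for H2A.B, 1 in each direction, became 0 and 9 of 540 in 1 kb windows, beside 0.00% and 0.906% over the genome. No 1 kb Hox window held more than 16 H2A.B reads and more than 56 were needed, so depth fixed the 0 in advance. Whole clusters gave 0 and 0, beside 9.72% and 9.49% of 100 kb windows. With all reads 3 and 4 of 55 were called, beside 6519 enriched (2.56%) and 13927 mirrored (5.46%) of 255113 over the genome. Scaled to the flanks the calls were 1 and 2 of 55, a setting with no genome share. limma called 0 clusters under each of its 10 alternatives. Its log2 difference reversed to -0.51 in Hoxa with the first block of replicate 2 and -0.95 with the first blocks of replicates 2 and 3, to 0.15 in Hoxb without 5mC replicate 1 (without 1 replicate each it ranged from -0.19 to 0.15 there), and to -0.31 in Hoxa, 0.21 in Hoxb and -0.29 in Hoxc with all reads. Windows of 1 kb without a 5mC read, 152 (27.6%, beside 29.2% in the flanks), numbered 197 to 246 without 1 replicate each and 475 after thinning. Without replicate 1 the order reversed, with 41.8% in the clusters and 39.5% in the flanks. It was 44.7% and 48.1% without replicate 2, and 35.8% and 40.3% without replicate 3. After thinning the shares were close, at 86.4% and 87.1%. With its last block alone, replicate 2 reversed to 1.40 in Hoxa, 1.46 in Hoxb, 1.89 in Hoxd and 1.42 over all clusters. Its intervals reached 1 with flanks of 100 kb in Hoxb, Hoxc and Hoxd, with the higher-coordinate flank alone in Hoxa, Hoxb and Hoxc, with the lower one alone in Hoxd, and without the fullest 1 kb windows in Hoxb. The cause was not tested. Alternatives that used the first block of replicate 3, the last block of replicate 2 or left out flank windows were chosen after seeing the data.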

Other observations

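The promoter lists beside the Hox genes give the same measure for genes outside the clusters, without reads of these libraries. The 15 matched of 18 other developmental regulators, among them Pax6 of the eye and brain and Otx2 of the forebrain, held a median of 17 CpG in 300 bases, against 17.5 in the Hox genes. Observed over expected CpG was at least 0.6 in 13 of these 15 and in 12 of the 22 Hox genes. The 14 matched Polycomb subunits held a median of 27, the 5 matched cofactors of Hox proteins of the Pbx, Meis and Pknox families 19, and the 5 DNA methyltransferases and their partners 33.

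The share of reads at distinct positions was higher inside the Hox clusters than over the genome in 5 of the 6 libraries, with no test made. It was 96.1% inside against 86.9% over the genome in H2A.B, 75.5% against 39.9% in 5mC replicate 1, 76.6% against 47.1% in replicate 2, 79.4% against 68.1% in IgG ChIP and 79.3% against 64.2% in IgG MeDIP. In 5mC replicate 3 it was 50.7% against 52.5%. There Hoxb stood at 37.4%, with 95 distinct among 254 reads, and Hoxa, Hoxc and Hoxd at 72.7%, 63.2% and 86.5%. In the flanks the share was 95.0% in H2A.B, 79.8%, 70.9% and 51.6% in 5mC replicates 1 to 3, 76.3% in IgG ChIP and 92.2% in IgG MeDIP. In replicate 3 the flanks of Hoxd stood at 39.8%.

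By strand, 36.6% of the distinct Hoxb reads in 5mC replicate 2 and 35.8% in replicate 3 lay on the plus strand, against 44.6% and 44.4% over the genome, and replicate 1 stood at 51.1% against 54.6%. Both IgG libraries were also lower in Hoxb. IgG ChIP stood at 39.7% (23 of 58 reads) against 45.0%, and IgG MeDIP at 30.8% (4 of 13) against 41.6%. In Hoxa, Hoxc and Hoxd IgG ChIP was above its genome share, at 56.0%, 53.1% and 64.3%. No test was made of these shares. In Hoxa and Hoxc replicate 2 stood at 56.4% and 50.9%.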
